A study of Homo sapiens with 10 samples.

Results

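The MYC sites described here are the peaks of the MYC library of set D that share at least 1 bp with a region of the MYC library of set C. They were chosen by peak position alone, on chromosomes 1 to 22 and X, and 8119 of the 18018 set D peaks met the rule (45.1%, exact 95% interval 44.3 to 45.8%). On the other side 7839 of the 9498 set C regions held at least 1 of them. They are called shared peaks below, and the other 9899 peaks of set D serve only for comparison. Since the overlap of both lists made the selection, its size is a description and no test is attached to it.

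RPMI-8402 is an established T-cell acute lymphoblastic leukaemia line (T-ALL in the labels), grown in RPMI medium with serum and antibiotics, and the labels name no genotype change or drug in any group. CUT&RUN was used, in which an antibody tethers a nuclease to its target so that the DNA next to the target is cut loose and sequenced. The groups used were RPMI_cMYC_CST_setC and RPMI_MYC_CST_setD, both made with the same MYC antibody, and for context RPMI_H3K4me3_setB, RPMI_H3K27ac_setC, RPMI_H3K4me1_setC and RPMI_MYCN_CST_setA. Each is 1 library of the same line, so there is no spread between replicates. The intervals given are exact binomial 95% intervals over listed peaks and cover counting error only, and peaks are not replicates. Both MYC lists name the same signal track in their header lines. Whether the lists are independent is therefore not settled, and their overlap cannot be read as a repeat experiment. The labels name RPMI_IgG_setC as the control of the set C library and name the set D library as its own control. The libraries RPMI_IgG_setC and RPMI_IgG_setD were not analysed here.

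MYC is a transcription factor that pairs with MAX and binds E-box DNA, mostly at promoters that are already active, and it drives growth and metabolism in T-cell leukaemia. H3K4me3 marks the nucleosomes around active start sites. H3K27ac is laid down at active promoters and enhancers, and H3K4me1 at enhancers and around the edges of promoters. MYCN is a close relative of MYC that recognises the same DNA motif. Set C was called with SEACR, which joins neighbouring signal into blocks, whereas set D was called with MACS2, which looks for local enrichment, so that set and caller cannot be told apart. The name field of each set C region, its column 4, gives a short stretch inside the region, which SEACR's format uses for the place of highest signal.

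Set C regions and set D peaks mostly paired one to one. Of the 7839 set C regions with a shared peak, 7575 held exactly 1 (96.6%, 96.2 to 97.0%), 248 held 2 (3.16%, 2.79 to 3.58%), 12 held 3, 2 held 4, 1 held 5 and 1 held 6. The reverse was rarer still, since only 7 of the 8119 shared peaks (0.0862%) reached into 2 set C regions. The 264 regions with more than 1 peak accounted for 551 shared peaks (6.79%, 6.25 to 7.36%).

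The set D peak usually sat wholly within the wider set C block. Of the shared peaks, 6925 (85.3%, 84.5 to 86.1%) were covered by set C along their whole length, and 83 (1.02%) were less than 50% covered. The opposite nesting, a set D peak that covers an entire set C region, was seen for 46 peaks (0.567%). Shared peaks had a median width of 557 bp (quartiles 387 and 755), and the set C regions that held them 1167 bp (932 and 1477). In the median region 48.5% of the set C bases lay in shared peaks (quartiles 34.4 and 62.8%). Where a region held 1 peak, the block ran past it by a median of 416 bp on the longer side and 151 bp on the shorter side.

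Few peaks lay near the limit of the rule. Of the shared peaks, 9 owed their place to 50 bp of overlap or less, and 1 of these to at most 10 bp. Just outside it, 13 of the other set D peaks came within 50 bp of a set C region, 4 of them within 10 bp. The 9 peaks just inside had a median width of 234 bp, below that of the shared peaks as a whole. Most of the remaining set D peaks were far from the limit, at a median of 66742 bp from the nearest set C region (quartiles 23715 and 185890).

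Regions with several peaks were wider blocks. The set C width had a median of 1153 bp with 1 shared peak (quartiles 924.5 and 1449), 1995.5 bp with 2 (1538.5 and 2649.75) and 3773.5 bp with 3 or more (2759.75 and 5960.75, 16 regions). A wider region can meet more separate peaks, so the order of these widths is not independent of the rule. Neighbouring peaks of a region were separated by a median of 463 bp (quartiles 287 and 744.5), and the widest peak of a region was 1.65 times as wide as its narrowest in the median. H3K4me3 overlapped 73.9% of the regions with 1 peak (72.9 to 74.9%), 83.1% of those with 2 (77.8 to 87.5%) and 8 of the 16 with 3 or more. A wider region meets another list more easily, and width was not held constant in these shares. MYCN overlapped 7.95% of the regions with 1 peak and 5.65% of those with 2, with intervals that overlap, and 0 of the 16 with 3 or more (exact upper bound 20.6%).

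By number of shared peaks, the leading region was on chromosome 5 from 49428251 to 49441579 on hg19 (13329 bp), with 6 peaks between 232 and 517 bp wide, of which 1 overlapped H3K27ac and none H3K4me3. The next, on chromosome 4 from 49512114 to 49517611 (5498 bp), held 5 peaks of 214 to 401 bp and again no H3K4me3. The block on chromosome 6 from 26020353 to 26036236 (15884 bp) differed in its marks, as its 4 peaks all overlapped H3K4me3, 2 overlapped H3K27ac, and gaps of 192 to 6668 bp separated them. On chromosome 3 from 197825536 to 197832884 a 7349 bp region held 4 peaks without H3K4me3. Those with 3 peaks included chromosome 4 from 49290718 to 49300915, chromosome X from 61727775 to 61731455, and chromosome 1 from 2583581 to 2588287, none with H3K4me3. The regions on chromosome 6 from 107434330 to 107438195 and on chromosome 17 from 8124009 to 8127059 had all 3 of their peaks in both H3K4me3 and H3K27ac, and that on chromosome 12 from 125050367 to 125054431 had 2 of 3 in H3K4me3. Several of the regions without H3K4me3, such as those on chromosomes 4, 5 and X, lie beside centromeres, where the genome is rich in repeats, and the part of repeats in these counts was not tested.

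In set C regions with a shared peak, the place of highest signal mostly met such a peak. The stretch in column 4 was short, with a median of 25 bp (quartiles 7 and 62), and it lay within its own region in all 9482 set C regions that give both ends. In 10 of the 7839 regions the field has no end, and these were left out. Of the other 7829, 7330 (93.6%, 93.1 to 94.2%) had a column 4 stretch that met a shared peak by 1 bp or more. Only regions that already overlap a set D peak were counted, and in the median 48.5% of their bases lay in shared peaks. Both lists also name the same signal track. The share that was met is therefore not independent of the rule. By number of peaks this share was 93.8% with 1 (93.3 to 94.4%), 88.1% with 2 (83.4 to 91.9%) and 13 of 16 with 3 or more. Where a region held several peaks and the stretch met at least 1, it met the widest in 151 of 228 regions (66.2%, 59.7 to 72.3%). A wider peak is met more easily, and the part of width in this share was not tested.

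The maximum also tended to lie near the middle of the set D peak. In the 7569 regions with 1 shared peak and a complete column 4 entry, the midpoint of the stretch was a median of 103 bp from the set D centre (quartiles 47.5 and 186). It lay within 100 bp of that centre in 48.9% of cases (3701 regions), within 200 bp in 77.5% and within 500 bp in 97.5%. Measured from the centre of the set C region itself the median was larger, at 136 bp (63 and 247), and 38.2% lay within 100 bp (37.1 to 39.3%). The midpoint was closer to the set D centre than to the set C centre in 58.1% of regions (57.0 to 59.2%). These distances are in bp, and set C regions with 1 shared peak were wider than the peaks, with a median of 1153 bp. The place of the midpoint relative to the set C width was not measured, so the smaller offset is not a more central place. Over all 8112 pairs, regions with several peaks included, the signed offset had a median of 4.5 bp with quartiles of -104.5 and 110.5 bp; the median thus lay close to 0. The set D list gives no summit, so its centre stands for the position of the peak, and the overlap required by the rule itself keeps the offsets short.

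**Figure D1:**
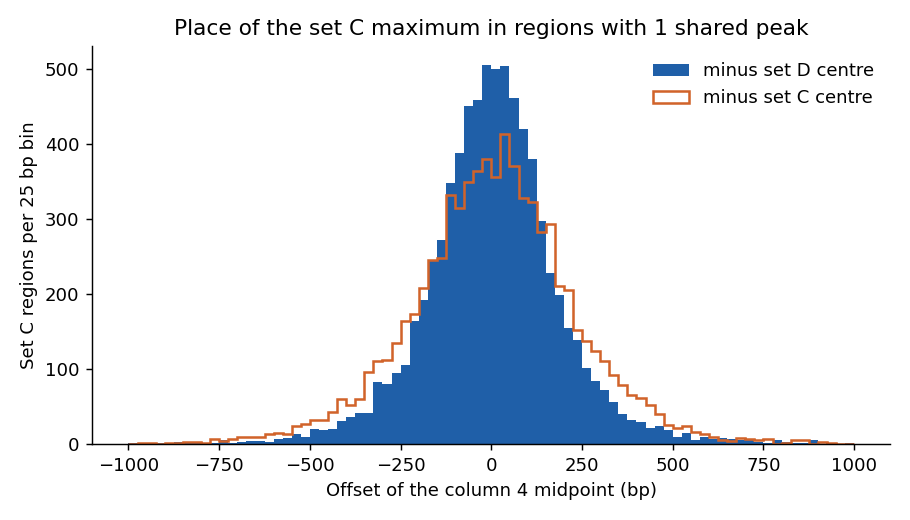
Offset in bp of the column 4 midpoint of 7569 set C regions with 1 shared peak, in bins of 25 bp, from the centre of the set D peak (filled) and from the centre of the set C region (line). Both distributions are centred near 0, and the filled one is narrower in bp, with median absolute offsets of 103 and 136 bp. The set C regions are wider than the set D peaks, and the offsets are not scaled to width. Beyond the plotted 1000 bp lie 24 and 26 regions.

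The offset grew with the width of the peak, and relative to that width it was largest in the narrowest group. With the 7569 pairs put in 4 width groups, the median offset was 66.5 bp in the narrowest group (186 to 402 bp wide), 88 bp and 113 bp in the middle ones, and 181 bp in the widest (769 to 2294 bp). As a fraction of the distance from the peak's centre to its edge the medians were 0.45, 0.35, 0.35 and 0.38. The column 4 stretch met the peak in 85.1% of the narrowest group (83.5 to 86.7%) and in 97.6% of the widest (96.8 to 98.2%).

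In 467 single-peak regions the maximum fell outside the peak. It then lay a median of 108 bp beyond the edge (quartiles 41.5 and 272.5). These peaks were narrower, with a median of 343 bp against 585 bp where the stretch met the peak, and their set C regions were 1229 bp against 1147 bp. H3K4me3 overlapped 57.8% of them (53.2 to 62.3%) and 74.1% of the peaks that were met (73.0 to 75.1%). MYCN overlapped 1.93% (0.885 to 3.63%) and 8.42% (7.78 to 9.09%). Peak width differed between these classes as well, and its part in the shares was not tested.

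Shared peaks were wider than the rest of set D, and within set D the share of peaks found in set C rose with width. The median width was 557 bp against 338 bp (quartiles 250 and 481) for set D peaks outside set C, a ratio of 1.65. From the narrowest to the widest of 4 width groups of all set D peaks, 20.7% (19.5 to 21.9%), 33.1% (31.7 to 34.5%), 53.0% (51.5 to 54.4%) and 73.5% (72.2 to 74.8%) were shared. The groups spanned 186 to 285, 286 to 422, 423 to 620 and 621 to 3268 bp. A wider interval meets set C more easily, so this order is not independent of the rule.

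H3K4me3, from a library that the rule did not use, overlapped 5948 shared peaks (73.3%, 72.3 to 74.2%), against 56.0% of all set D peaks and 41.8% of those outside set C (40.8 to 42.8%). Shared peaks had the higher share in all 4 width groups of set D. H3K4me3 overlapped 43.9% of the shared and 23.2% of the other peaks in the narrowest group (intervals 40.6 to 47.1% and 21.8 to 24.6%), 57.6% and 36.9% in the next, 72.5% and 58.7% in the third, and 89.1% and 80.0% in the widest (88.0 to 90.1% and 77.6 to 82.3%). The difference was smaller in the wider groups than in the narrower ones, and in none of the 4 did the intervals overlap. Shared peaks were still wider within each group. The medians were 235 against 230 bp in the narrowest and 806 against 744 bp in the widest. Read from the side of the mark, 59.0% of the set D peaks that met H3K4me3 were shared (58.0 to 60.0%), compared with 27.4% of those that did not (26.4 to 28.4%).

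Of the other lists, H3K27ac overlapped 6445 shared peaks (79.4%, 78.5 to 80.3%), against 70.7% of all set D peaks and 63.5% of those outside set C. Without regard to H3K4me3, H3K4me1 went the other way, with 1701 shared peaks (21.0%, 20.1 to 21.9%), against 28.2% of all set D peaks and 34.1% outside set C. MYCN overlapped 621 shared peaks (7.65%, 7.08 to 8.25%), against 4.72% of all set D peaks and 2.31% outside set C. Within width groups the H3K27ac shares were 64.1% and 53.6% for the narrowest shared and other peaks and 88.6% and 80.5% for the widest. For H3K4me1 they were 24.6% and 38.3% for the narrowest, and 16.3% (15.1 to 17.6%) and 19.5% (17.3 to 21.9%) for the widest, where the intervals just overlap. MYCN shares were higher in wider peaks of both classes: in the narrowest group it met 0.321% of shared and 0.362% of other peaks, with overlapping intervals, and in the widest 14.6% (13.5 to 15.9%) and 9.90% (8.26 to 11.7%).

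By combination of marks, 4069 shared peaks met H3K4me3 and H3K27ac without H3K4me1 (50.1%, 49.0 to 51.2%), against 23.6% of the other set D peaks (22.7 to 24.4%). A further 725 (8.93%) met all 3 marks and 1044 (12.9%) H3K4me3 alone. The enhancer-like pair of H3K27ac and H3K4me1 without H3K4me3 was found at 761 shared peaks (9.37%, 8.75 to 10.0%) and at 22.5% of the others (21.7 to 23.3%). H3K27ac alone was found at 890 and H3K4me1 alone at 105 (1.29%). No mark was met by 415 shared peaks (5.11%, 4.64 to 5.61%) and 15.0% of the others (14.3 to 15.7%). The share of set D peaks found in set C was highest with all 3 marks, at 67.3% (64.4 to 70.1%). It was 63.6% with H3K4me3 and H3K27ac, 47.8% with H3K4me3 and H3K4me1, and 44.0% with H3K4me3 alone. With H3K27ac alone it was 39.3%, with the enhancer-like pair 25.5% and with no mark 21.9%. The lowest share, 13.4%, was found with H3K4me1 alone (11.1 to 16.0%). Median widths were 657 bp for shared peaks with H3K4me3 and H3K27ac, 431 bp with the enhancer-like pair and 339 bp with no mark. Peak width thus differed between these classes, and its part in the shares was not tested.

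The distance to H3K4me3 was mostly either 0 or long. Beyond the 73.3% that overlapped, only 1.49% of shared peaks lay 1 to 2000 bp from an H3K4me3 region and 2.85% lay more than 2 and up to 10 kb away, whereas 8.66% lay more than 10 and up to 50 kb away and 13.7% farther. The cumulative share rose from 74.8% within 2 kb (73.8 to 75.7%) to 77.6% within 10 kb and 90.5% within 100 kb. For set D peaks outside set C it was 43.3%, 48.7% and 77.4%. The 2171 shared peaks that did not overlap had a median gap of 52490 bp (quartiles 16901 and 159024), and the 5764 others 64888 bp (23382.5 and 180527).

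**Figure D2:**
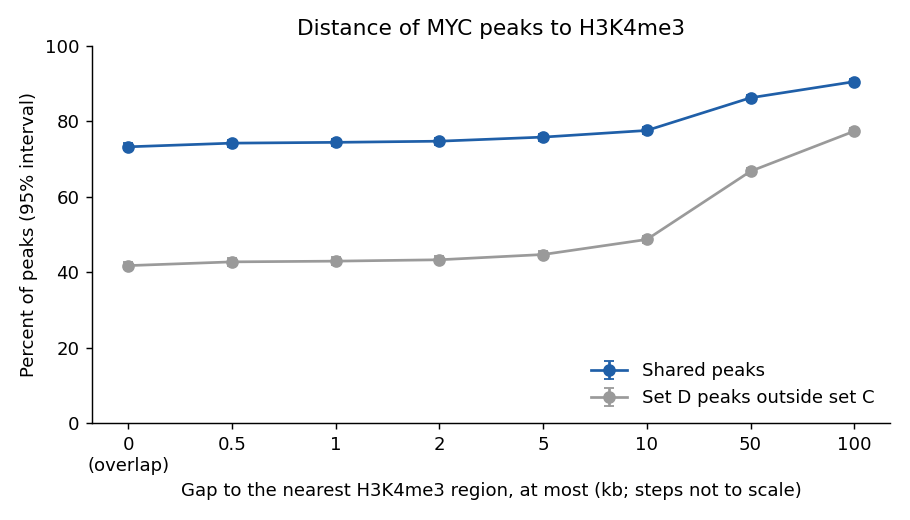
Cumulative percent of MYC peaks whose gap to the nearest H3K4me3 region is at most the distance on the x axis, in kb with steps not to scale, for shared peaks (blue) and set D peaks outside set C (grey), with exact 95% intervals. Both lines are nearly flat from overlap to 10 kb, from 73.3% to 77.6% and from 41.8% to 48.7%.

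Away from H3K4me3 most shared peaks met H3K27ac. It overlapped 57.9% of the 121 within 2000 bp (48.5 to 66.8%), 76.6% of the 231 up to 10 kb away, 80.8% of the 703 up to 50 kb away (77.7 to 83.6%) and 74.9% of the 1116 farther away (72.3 to 77.4%). The set D peaks outside set C had lower shares in the same classes, at 43.8%, 61.0%, 64.1% and 62.8%. H3K4me1 was at 14.0% of the shared peaks in H3K4me3 (13.2 to 14.9%), above the 11.4% of the other set D peaks there (10.5 to 12.4%). It was at 47.9% of the shared peaks 10 to 50 kb away (44.2 to 51.7%) and at 35.0% of those beyond 50 kb (32.2 to 37.9%). In both of these farther classes it was more frequent at the other set D peaks, at 56.6% (54.2 to 58.9%) and 47.2% (45.5 to 48.9%). MYCN met 9.33% (8.60 to 10.1%) of the shared peaks in H3K4me3 and 3.41% (2.42 to 4.64%) of those beyond 50 kb, against 3.77% and 1.28% of the other set D peaks. Median widths were 618 bp in H3K4me3 and between 377 and 405 bp in every class outside it, and those of the other set D peaks 438 bp and 284 to 295 bp. Width was not held constant in these classes.

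Within an H3K4me3 region the shared peak tended towards the middle. A single H3K4me3 region was met by 5681 shared peaks, and 78.4% of them lay wholly inside it (77.3 to 79.5%). The peak centre was a median of 283.5 bp from the centre of the H3K4me3 region (quartiles 132 and 486). As a fraction of the distance from the centre of that region to its edge the median was 0.35, and 29.1% lay in the innermost of 5 equal bands (28.0 to 30.3%), against 4.65% in the outermost (4.11 to 5.23%) and 4.44% with the centre beyond the edge. The other set D peaks were less central on this relative scale, with a median of 0.40 and 24.7% in the innermost band (23.4 to 26.1%). In bases they were closer, at 249 bp, and the H3K4me3 regions they met were narrower, with a median of 1437 bp against 1858 bp. A wide peak cannot have its centre near the edge of a region without crossing it, and peak width was not held constant here.

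**Figure D3:**
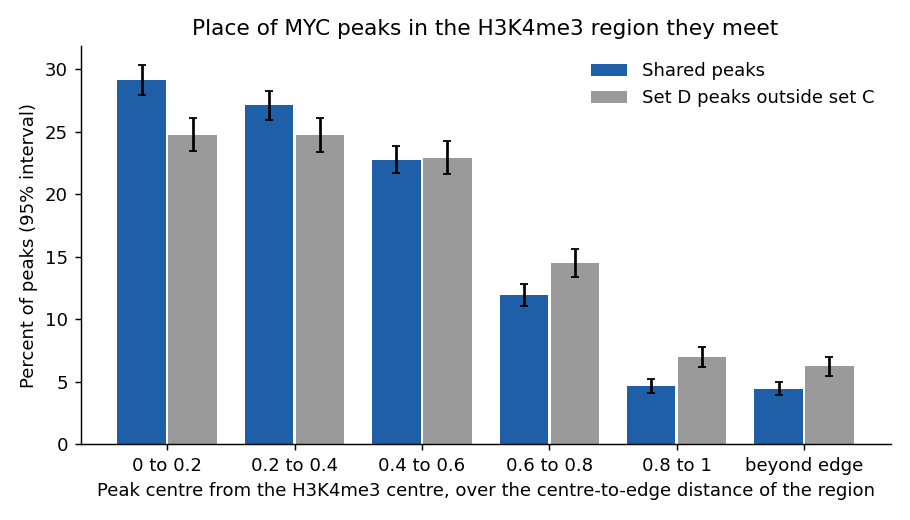
Percent of peaks by the distance of their centre from the centre of the H3K4me3 region, as a fraction of the distance from its centre to its edge, for 5681 shared peaks (blue) and 4037 set D peaks outside set C (grey) that meet a single H3K4me3 region, with exact 95% intervals. Both fall towards the edge, and the shared peaks start higher, at 29.1% against 24.7%.

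The set C maximum lay slightly farther from the H3K4me3 centre than the set D centre did. In 5273 single-peak regions whose peak met a single H3K4me3 region, the median distances were 329 bp for the column 4 midpoint (quartiles 155 and 539.5) and 275 bp for the set D centre (128.5 and 472). The column 4 midpoint was the nearer of the pair in 39.4% of cases (38.1 to 40.7%). Counted as positive towards the H3K4me3 centre, its offset from the set D centre had, over 5271 pairs, a median of -13.5 bp with quartiles of -120.75 and 95 bp. The spread was thus far larger than the shift. The pairs were kept because the set D peak met H3K4me3, and no such condition was put on the column 4 midpoint. The order of the distances is therefore not independent of the selection.

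H3K4me3 regions carried shared peaks singly as well. Of the 13852 regions, 5994 held at least 1 (43.3%, 42.4 to 44.1%), and of these 5770 held 1 (96.3%), 217 held 2 (3.62%) and 7 held 3 or more. Their median widths were 1729.5 bp, 2785 bp and 3045 bp, and 993 bp for the 7858 regions without a shared peak. Conversely 267 shared peaks (3.29%) bridged 2 or more H3K4me3 regions, compared with 0.990% of the other set D peaks. Shared peaks are the wider class, and neither the width of peaks nor that of regions was held constant in these comparisons.

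MYCN peaks that met a set D peak lay near its centre, within the shared class and outside it. Only overlapping peaks were measured, and this itself keeps the distances short. Among the 598 shared peaks with a single MYCN peak the centres were a median of 93.25 bp apart (quartiles 42.625 and 173), and among 223 other set D peaks 73.5 bp (31.75 and 137.75). In the 585 of these pairs with 1 shared peak in the set C region, the MYCN centre was 94.5 bp from the set D centre, 101.5 bp from the column 4 midpoint and 143.5 bp from the set C centre in the median. The column 4 stretch met the MYCN peak in 65.8% of them (61.8 to 69.7%), and the set D centre fell in it in 62.6% (58.5 to 66.5%), and these intervals overlap. Overlap with MYCN was required of the set D peak alone, and set C regions are wider. The order of the median distances is thus not independent of the selection. With any MYCN peak, the column 4 stretch met the shared peak in 98.5% of 607 single-peak regions (97.2 to 99.3%), against 93.4% of the 6962 without MYCN (92.8 to 94.0%). The shared peaks with MYCN were wider, with medians of 783 and 551 bp.

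Along the chromosomes shared peaks mostly lay far apart. The gap to the next shared peak had a median of 94627 bp (quartiles 28184 and 296364), ran from 187 bp upwards, and was at most 5 kb in 6.79% of cases (6.25 to 7.36%). Set D peaks outside set C, which are more numerous, had a median gap to each other of 108030 bp, with 4.56% of gaps at most 5 kb (4.15 to 4.99%). Over all set D peaks 7.39% of gaps were at most 5 kb (7.01 to 7.78%), more than among the shared peaks alone. Between the set C regions that hold shared peaks it was 4.53% (4.08 to 5.01%), close to the 4.56% of the peaks outside set C. The rule takes neighbouring peaks under 1 set C region together, and 287 gaps between shared peaks lay within such a region, so the share of short gaps is not independent of the rule. Gaps over 1000000 bp made up 8.77% among shared peaks, 6.24% among those outside set C and 2.76% among all set D peaks.

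**Figure D4:**
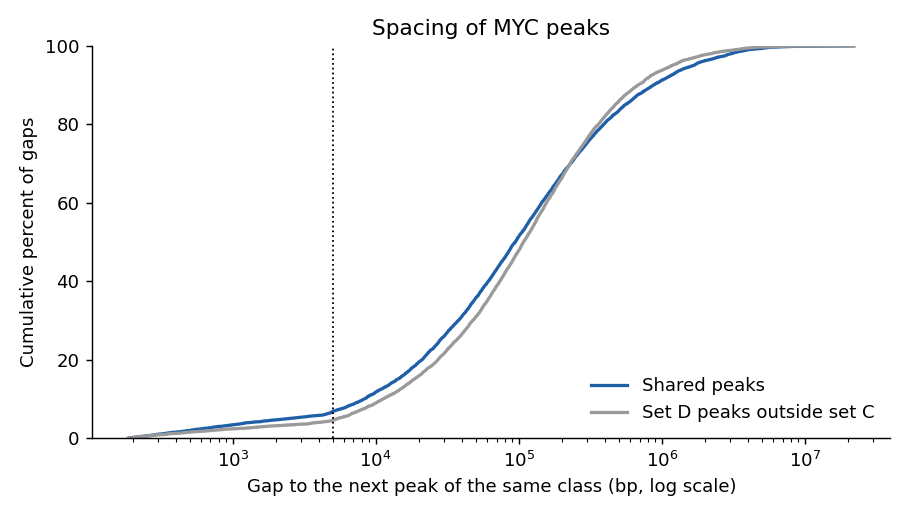
Cumulative percent of gaps between neighbouring peaks of the same class against gap length in bp on a log scale, for 8096 gaps between shared peaks (blue) and 9876 between set D peaks outside set C (grey); the dotted line marks 5 kb, the gap used to join peaks into clusters. The blue line lies above the grey one at the left, with 6.79% against 4.56% of gaps up to 5 kb, and below it at the far right.

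Joined across gaps of up to 5 kb, 7068 shared peaks stood alone and 1051 (12.9%, 12.2 to 13.7%) fell into 501 clusters, of which 460 held 2 peaks, 34 held 3, 6 held 4 and 1 held 5. This was near the share over all set D peaks, 13.5% (13.0 to 14.0%). Of the set D peaks outside set C, 7.69% were in clusters of their own class (7.17 to 8.23%), and of the set C regions that hold shared peaks 8.69% were (8.07 to 9.33%). The 501 clusters spanned a median of 2123 bp (quartiles 1371 and 3843), and in 244 of them (48.7%) all the peaks lay in 1 set C region, and were thus chosen together by the rule. Every peak met H3K4me3 in 345 clusters (68.9%, 64.6 to 72.9%), H3K27ac in 256 (51.1%), H3K4me1 in 19 (3.79%) and MYCN in 2. Clustered peaks were narrower than lone ones, at 396 bp against 582 bp in the median. They met H3K4me3 as often (73.0% and 73.3%, intervals 70.2 to 75.6% and 72.3 to 74.3%), but H3K27ac less often (68.3%, 65.4 to 71.1%, against 81.0%, 80.1 to 81.9%), H3K4me1 less often (14.1%, 12.0 to 16.3%, against 21.97%, 21.01 to 22.96%) and MYCN less often (3.81%, 2.73 to 5.15%, against 8.22%, 7.59 to 8.88%). Width was not held constant here, so the near-equal H3K4me3 shares are not a comparison at like width. Among shared peaks the H3K4me3 share was 43.9% in the narrowest width group and 89.1% in the widest. The H3K27ac and MYCN shares were also higher in wider peaks, whereas the H3K4me1 share was lowest in the widest group.

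Ranked by number of peaks, the first cluster was on chromosome 4 from 49512169 to 49517064 (4896 bp), with 5 peaks in 1 set C region, none in H3K4me3 or H3K27ac. It was followed by chromosome X from 56790445 to 56805676 (15232 bp), with 4 peaks in 4 set C regions, 3 of them in H3K27ac and 1 in H3K4me3. On chromosome 12 from 34831337 to 34842231 (10895 bp) and on chromosome 4 from 49126505 to 49132944 (6440 bp) there were 4 peaks each, and none met any of the 3 marks. Clusters in H3K4me3 stood on chromosome 1 from 153931069 to 153940504 (9436 bp) and on chromosome 17 from 7137486 to 7146329 (8844 bp), where 3 peaks in 3 set C regions all met H3K4me3. The former had 1 peak in H3K27ac and the latter none. No peak of the 10 leading clusters met MYCN. The clusters on chromosome 4 and on chromosome 12 adjoin centromeres, and whether repeats there had a part in the clusters was not tested.

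The 10 widest shared peaks all lay in single-peak regions. The first, on chromosome X from 153236081 to 153238374 (2294 bp), had its column 4 midpoint at -616.5 bp from the set D centre. On chromosome 16 from 4321266 to 4323486 (2221 bp) the midpoint was at 732.5 bp, and on chromosome 19 from 18699553 to 18701591 (2039 bp) at -838.5 bp. The peak on chromosome 17 from 7338577 to 7340533 (1957 bp) reached far past its set C region of 970 bp, and its midpoint lay at -848.5 bp. In all 10 of the widest the column 4 stretch still met the peak, and 9 of the 10 met H3K4me3 and H3K27ac. The exception was on chromosome 4 from 182161058 to 182162839 (1782 bp), which met none of the 3 marks and lay 1180812 bp from the nearest H3K4me3 region.

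At the other end, 4 of the 5 shared peaks farthest from H3K4me3 were on chromosome 21 between 9698614 and 10702560, at gaps of 4649101 to 5652490 bp. This stretch adjoins the centromere. The fifth, on chromosome 2 from 80220277 to 80220707 (431 bp), lay 4281605 bp from H3K4me3 and met H3K27ac and 1 MYCN peak.

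The share of set D peaks found in set C differed between chromosomes. It ran from 26.1% on chromosome 13 (20.8 to 31.9%, 67 of 257) to 59.9% on chromosome 19 (56.9 to 63.0%, 615 of 1026), with 54.5% on chromosome 4 (50.9 to 58.1%). Among set D peaks in H3K4me3 alone the range was wider, from 33.3% on chromosome 13 (26.3 to 41.0%) to 72.0% on chromosome 4 (67.2 to 76.4%). Chromosomes 1, 3, 4, 11, 12, 17, 19 and 20 lay between 65.0% and 72.0% by this measure, whereas chromosomes 2, 5, 7, 9, 13, 15, 16, 18, 22 and X lay between 33.3% and 52.4%. With width limited as well, to peaks in H3K4me3 of the widest group, chromosomes 13 and 15 gave 47.4% (34.0 to 61.0%) and 48.1% (38.3 to 58.0%), and chromosome 4 gave 86.3% (80.7 to 90.8%). Read from set C the order did not hold: 89.0% of the 73 set C regions on chromosome 13 (79.5 to 95.1%) and 77.5% of the 506 on chromosome 4 (73.6 to 81.0%) held a shared peak. Shared peaks met H3K4me3 more often than the other set D peaks on 23 of 23 chromosomes and were wider in the median on 23 of 23. The chromosomes of 1 library are not replicates. A wider peak meets set C more easily, so the widths are not independent of the rule, and width was not held constant in the H3K4me3 comparison.

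**Figure D5:**
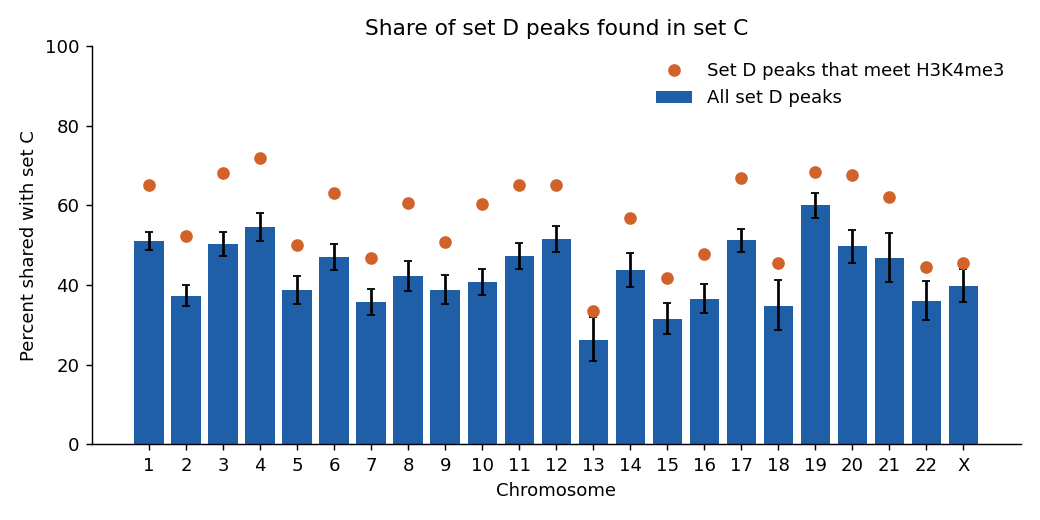
Percent of set D peaks shared with set C on each chromosome, for all set D peaks (bars, with exact 95% intervals) and for those that meet H3K4me3 (points). Bars run from 26.1% on chromosome 13 to 59.9% on chromosome 19 and points from 33.3% on chromosome 13 to 72.0% on chromosome 4.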

How the data were processed

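The deposited files list intervals on hg19, the build in the submitters' processing notes, as start and end in bases with no score. The file headers give SEACR (stringent, paired) for the set C MYC regions, MACS2 (stringent, non-paired) for the set D peaks, MACS2 for H3K4me3 and cutruntools with q under 0.01 for MYCN. No header line names a caller for H3K27ac or H3K4me1. Tool versions and the aligner: not given in the sources used here.

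Chromosomes 1 to 22 and X were kept, and an overlap is 1 bp or more. Column 4 was read as start and end of the maximum, and gaps were measured edge to edge. Regions named in the text lead 4 rankings: set C regions by number of shared peaks (ties by width), shared peaks by width and by distance from H3K4me3, and clusters by number of peaks (ties by span). Chromosomes were named after their values were seen. Depth is unknown. Overlap counts equalled those of bedtools 2.31.1 for 30 of 30 ordered pairs of lists, and the code was first tested on simulated data. Calculations ran in Python 3.11.15 with scipy 1.17.1 and numpy 2.4.6, and plots in matplotlib 3.10.9. The rule, the lists and the measures were chosen with earlier results of these data known. E-box sequences and gene names were not analysed here, as no genome or annotation of hg19 was used. The alternatives were the overlap rule, joined or wide set D peaks, chromosome X left out, other cluster gaps, other distances to H3K4me3 and the nearest base of column 4.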

Additional observations from a re-analysis of the deposited data

How the results depend on the processing

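Of 35 alternative values over 7 results, 25 stayed within the interval of the main value or, for the number of shared peaks, within 1.5 times of it. With only set D peaks at or above the median width, 99.2% of the set C regions with a shared peak held exactly 1. The column 4 stretch met a peak in 96.1% of those that give both ends. The median offset was then 121 bp, the median gap 148333 bp and the H3K4me3 share 82.1%. That setting left 5706 shared peaks, and the cause of the other shifts was not tested. The nearest base of column 4 in place of its midpoint gave a median offset of 84 bp, against 108 bp over all pairs. A cluster gap of 1 kb put 6.61% of shared peaks in clusters and a gap wider than 5 kb 24.6%. H3K4me3 within 2 kb of the peak gave 74.8%, and the peak's centre in H3K4me3 68.6%. Requiring the peak's centre in 1 set C region, or 50% of the peak within 1, left the same 8032 shared peaks. The lists hold no signal values, so what depth limits could not be measured. No paired analysis was possible because each list is 1 library.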
